A study of Homo sapiens with 2 samples.

Results

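The family of miR-15, miR-16, miR-195, miR-424 and miR-497 was described here through 10 mature miRNA names, chosen by name from the 2588 names listed in each library: miR-15a-5p, miR-15b-5p, miR-15b-3p, miR-16-5p, miR-16-2-3p, miR-195-5p, miR-424-5p, miR-424-3p, miR-497-5p and miR-503-5p. The libraries came from parental MDA231 cells, an established line of triple-negative breast cancer known also as MDA-MB-231. In the bait library, lysate was passed over amylose resin that held MACC1-AS1-MS2, a long non-coding RNA transcribed in vitro with T7 RNA polymerase and carrying MS2 hairpins, through a fusion of maltose-binding protein and MS2 coat protein. In the no-bait library the RNA substrate was labelled None, so no control carried another RNA or only the MS2 hairpins, and a difference between the libraries cannot be told apart from one caused by any RNA on the resin. RNA released with maltose was sequenced as miRNA. There was 1 library in each group, so every difference below compares these libraries and has no replicate check.

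miRNAs of this family are cut from hairpin precursors that yield a 5p and a 3p strand, and the strand kept in an Argonaute protein guides it to messenger RNAs through its seed, the bases near its 5′ end. The 5p strands are known to repress genes that drive the cell cycle and survival, including cyclins and BCL2, and the miR-15a and miR-16 genes on chromosome 13 are deleted in many chronic lymphocytic leukaemias. miR-16-5p is usually among the more abundant miRNAs of cultured cells, and the miR-424 and miR-503 genes of the X chromosome lie in a longer cluster with the miR-450 and miR-542 genes.

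Mature sequences were found in RefSeq (GRCh38.p14) for 10 of 10 members and 15 of the 16 relatives compared below, and those of the members are shown because they separate the members by seed and by arm. Each is written 5′ to 3′ with bases 2 to 8, the seed, in capitals. The first 6 share 1 seed, miR-503-5p differs from it at the last seed base, and each 3p strand has a seed of its own.
hsa-miR-16-5p: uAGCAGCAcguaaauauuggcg
hsa-miR-15a-5p: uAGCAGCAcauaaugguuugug
hsa-miR-15b-5p: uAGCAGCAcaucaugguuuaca
hsa-miR-195-5p: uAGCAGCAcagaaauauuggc
hsa-miR-424-5p: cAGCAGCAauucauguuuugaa
hsa-miR-497-5p: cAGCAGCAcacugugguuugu
hsa-miR-503-5p: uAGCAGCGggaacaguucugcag
hsa-miR-16-2-3p: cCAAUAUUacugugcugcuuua
hsa-miR-15b-3p: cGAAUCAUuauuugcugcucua
hsa-miR-424-3p: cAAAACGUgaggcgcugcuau

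The members come from 4 clusters. MIR15A and MIR16-1 lie on chromosome 13 (minus strand) inside the long non-coding gene DLEU2, where MIR16-1 is intronic and MIR15A overlaps an annotated exon. MIR15B and MIR16-2 lie on chromosome 3 (plus strand) in an intron of SMC4, a condensin gene. MIR195 and MIR497 overlap an exon of MIR497HG on chromosome 17 (minus strand). MIR424 overlaps an exon of MIR503HG on the X chromosome (minus strand), and MIR503 lies in an intron of the same gene. miR-16-5p is encoded identically by MIR16-1 and MIR16-2, so its reads cannot be given to 1 cluster, while miR-16-2-3p comes from MIR16-2 alone. The pairs of arms that the results turn on are shown in their hairpins, with the mature 5p and then 3p strand in capitals. MIR16-2 spans chr3:160404745-160404825 (plus strand) and MIR424 spans chrX:134546614-134546711 (minus strand).
MIR16-2: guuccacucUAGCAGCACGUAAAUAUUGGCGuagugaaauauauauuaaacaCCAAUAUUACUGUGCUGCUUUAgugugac
MIR424: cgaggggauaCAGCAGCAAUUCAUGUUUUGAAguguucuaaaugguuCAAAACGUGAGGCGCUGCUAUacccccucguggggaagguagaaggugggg

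The libraries held 1047269 counts with bait and 269716 without, a 3.88-fold difference in depth. A level is given as RPM, the count per 1000000 counts of all listed miRNAs in that library, and a ratio is bait over no-bait RPM with its exact conditional 95% interval. All intervals cover counting error only and take reads as independent. Reads without molecular identifiers are not independent molecules, so the intervals may be too narrow. RPM is a share of a library, so more of a miRNA retained, more of it in the lysate and less of others cannot be told apart. Markers fixed for mesenchymal or basal breast lines were found in both libraries, 6 of 6, with 36.7% of counts with bait and 50.4% without. Most of those counts were of hsa-miR-100-5p (310370 with bait and 122128 without), and the list had no common direction, with a ratio of 11.4 for hsa-miR-125b-5p and 0.200 for hsa-miR-222-3p. Of 7 epithelial markers, miR-141-3p, miR-205-5p and miR-375 had 0 counts in both, and the list held 0.0181% and 0.0111% of counts. The other 4 epithelial markers were detected. hsa-miR-200b-3p had 144 counts with bait and 28 without (ratio 1.32, 0.879 to 2.06). hsa-miR-200c-3p had 20 and 1, hsa-miR-200a-3p 18 and 1, and hsa-miR-429 8 and 0. Of 7 blood cell markers, miR-144-3p, miR-223-3p and miR-150-5p had 0 counts in both, and the list held 0.0432% with bait and 0.0864% without. The other 4 blood cell markers were hsa-miR-486-5p with 386 counts with bait and 214 without (ratio 0.465, 0.392 to 0.552), hsa-miR-142-5p with 45 and 9 (1.29, 0.622 to 3.00), hsa-miR-142-3p with 17 and 0, and hsa-miR-451a with 4 and 10. miR-16-5p is also abundant in red blood cells, and the part of RNA from blood cells in its levels was not tested.

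The family was a minor component of what the resin retained. Its 10 members held 1337 counts with bait, or 0.128% of the library (exact binomial 95% interval 0.121% to 0.135%), and 183 counts without, or 0.0678% (0.0584% to 0.0784%). At least 1 count was seen for 9 members, and 7 had counts in both libraries. With bait the pooled family stood at 1277 RPM and without bait at 678 RPM, a ratio of 1.88 (1.61 to 2.21). This pooled value joined members that lay in opposite directions. Without miR-16-5p the pooled ratio was 1.07 (0.902 to 1.28), and without miR-424-3p it was 3.76 (3.03 to 4.73).

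**Figure D1:**
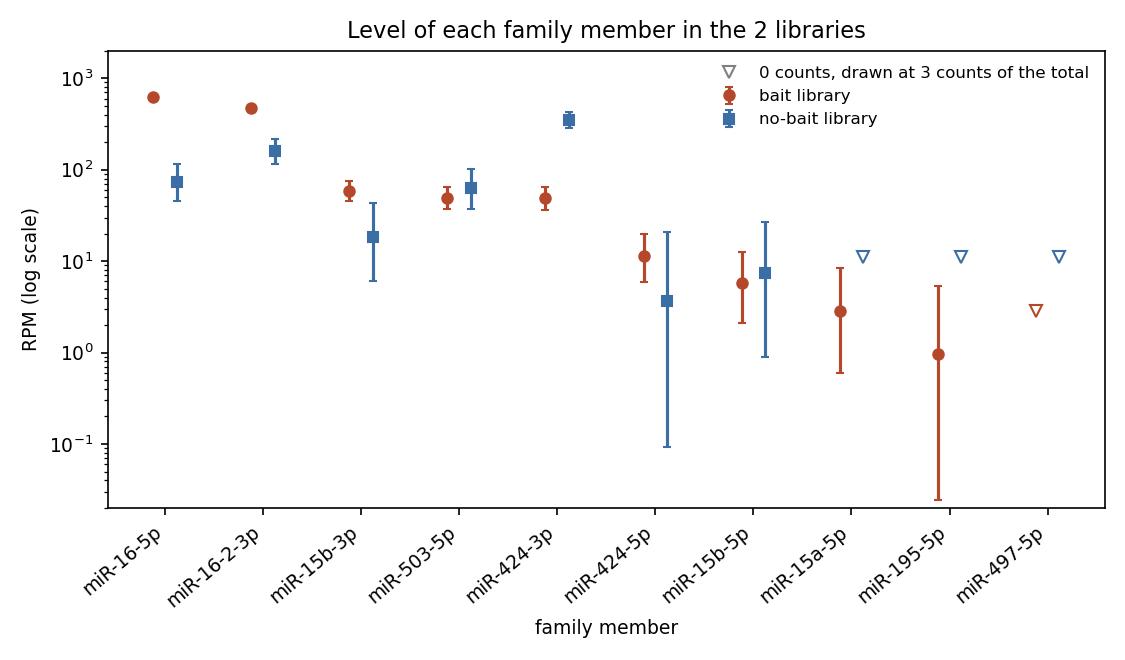
Level of each of the 10 family members in RPM on a log axis, ordered by count with bait (circles, bait library; squares, no-bait library; bars, exact Poisson 95% intervals, counting error only; open triangles, 0 counts drawn at the level of 3 counts). miR-16-5p leads with bait at 629 RPM, and miR-424-3p leads without bait at 352 RPM.

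A member was tested where the libraries together held at least 30 counts, and the call was higher for a ratio from 2 upwards and lower for a ratio from 0.5 downwards, if 1 lay outside the interval. Of the 10 members, 5 passed this filter on low counts, of which 3 were called higher, 1 lower and 1 neither. The same rule called 39.4% of the 231 tested miRNAs higher and 26.8% lower. The filter favours miRNAs that are high in the deeper bait library. Of the members called higher, miR-16-5p (659 counts with bait and 20 without) and miR-15b-3p (62 and 5) passed it through that library alone. With 5 cases the family is not distinguished from this background. The median log2 ratio was 1.56 over the 7 members with counts in both libraries, which include 2 below the count minimum, and -0.42 over all 412 miRNAs with counts in both libraries. Over the 231 tested miRNAs, a set chosen by counts and with a count of 0 set to 3, it was 0.55, so the median to set beside the members moves with the filter.

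hsa-miR-16-5p, the 5p strand with the most reads, had 659 counts with bait (629 RPM, 582 to 679) and 20 without (74.2 RPM, 45.3 to 115). The ratio was 8.49 (5.45 to 13.98) and the intervals of the levels did not overlap. It was the 33rd highest ratio of the 231 tested miRNAs. miR-16-5p passed the count filter through the bait library alone, and the filter favours that direction. Its rank is therefore not read against the other miRNAs. By level, miR-16-5p was the 56th most abundant name with bait and the 137th without. The 20 counts without bait set the width of its interval.

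The other 5p strands with the same seed were close to the detection limit. hsa-miR-15b-5p stood at 5.73 RPM in the bait library (6 counts) and 7.42 RPM in the other (2 counts), and its ratio was 0.773 (0.138 to 7.83). hsa-miR-424-5p, known for roles in differentiation and in the vessel wall, stood at 11.5 RPM (12 counts) and 3.71 RPM (1 count), and its ratio was 3.09 (0.457 to 132). Both intervals include 1, so a difference was not detectable at this depth. hsa-miR-15a-5p had 3 counts with bait and hsa-miR-195-5p had 1, each against 0 without bait, and hsa-miR-497-5p had 0 in both. A count of 0 was given a limit of 3 counts of the total, or 2.86 RPM with bait and 11.1 RPM without, a one-sided limit that lies below the upper end of a two-sided interval, and no ratio is given for these. Without miR-503-5p, whose last seed base differs, the 5p members pooled to 681 counts in the bait library and 23 in the other, and their ratio of 7.63 (5.04 to 12.1) rested almost wholly on miR-16-5p.

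Reads assigned among the 5p strands carry an uncertainty from sequence. miR-16-5p and miR-195-5p share their first 9 bases and are 3 edits apart over their full length, and miR-15a-5p and miR-15b-5p share 11 and are 4 edits apart. How reads that match several of them were counted is not known here. With 1 count for miR-195-5p against 659 for miR-16-5p, reads misassigned from miR-195-5p cannot be told apart from miR-16-5p reads.

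hsa-miR-16-2-3p, the 3p strand of MIR16-2, was the next most abundant member with bait. It stood at 469 RPM with bait (491 counts, 428 to 512 RPM) and at 159 RPM without (43 counts, 115 to 215 RPM), and its ratio was 2.94 (2.15 to 4.12). hsa-miR-15b-3p, from the neighbouring hairpin, had 62 counts with bait (59.2 RPM, 45.4 to 75.9) and 5 without (18.5 RPM, 6.02 to 43.3). Its ratio was 3.19 (1.30 to 10.2). The levels of both were higher with bait and their intervals did not overlap between libraries. The ratio of miR-15b-3p was 1.09 times that of miR-16-2-3p, with an interval of 0.409 to 3.64 that includes 1.

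hsa-miR-424-3p, the 3p strand of MIR424, went the other way. It had 51 counts with bait (48.7 RPM, 36.3 to 64.0) and 95 without (352 RPM, 285 to 431), although the bait library was deeper. Its level was 7.23-fold lower with bait (5.09 to 10.4), a ratio of 0.138, and it ranked 211th of 231 ratios. hsa-miR-503-5p, encoded beside it, had 52 counts with bait (49.7 RPM, 37.1 to 65.1) and 17 without (63.0 RPM, 36.7 to 101). Its ratio was 0.788 (0.448 to 1.45), which passed neither rule. The ratio of miR-503-5p was 5.70 times that of miR-424-3p (2.87 to 11.6), so these neighbours differed beyond counting error.

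**Figure D2:**
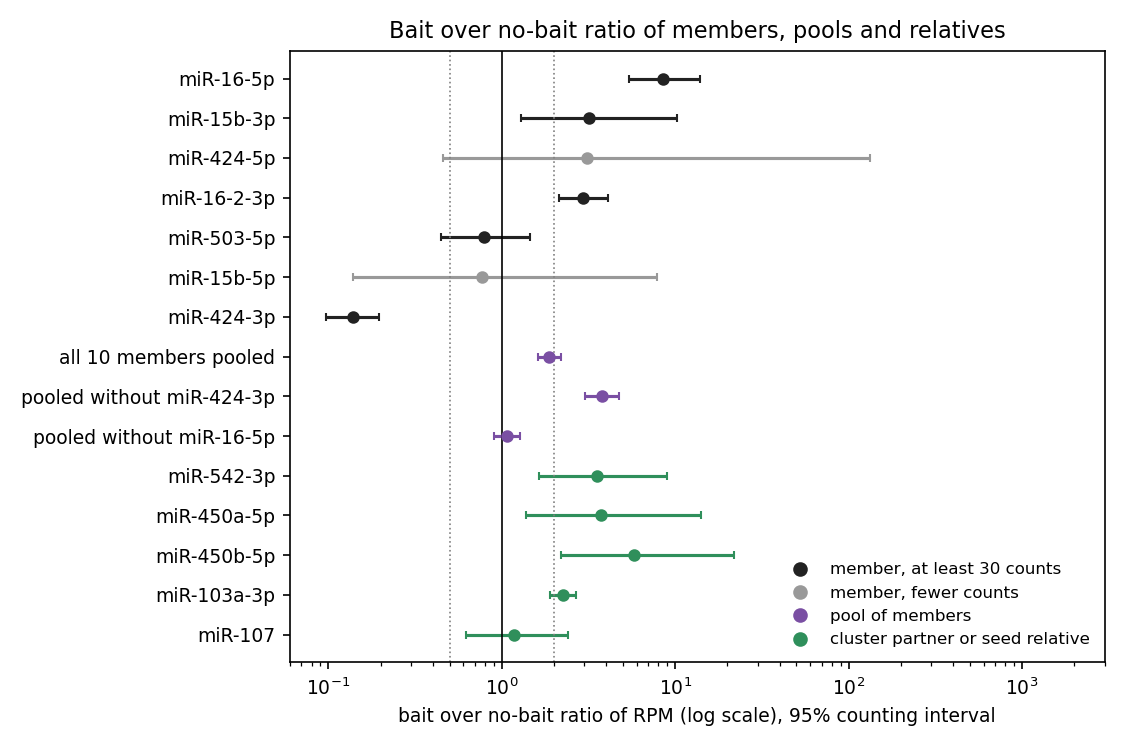
Bait over no-bait ratio on a log axis with its 95% counting interval for the 7 members with counts in both libraries (black, at least 30 counts; grey, fewer), 3 pools of members (purple) and the cluster partners and seed relatives with at least 30 counts (green). Dotted lines mark ratios of 0.5 and 2. miR-16-5p at 8.49 and miR-424-3p at 0.138 lie at the ends, and the pool of all members lies between them at 1.88.

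The make-up of the family therefore differed between the libraries, a comparison that does not depend on how they are scaled to each other. With bait, miR-16-5p made up 49.3% of family counts (exact binomial 95% interval 46.6% to 52.0%), against 10.9% without (6.80% to 16.4%). miR-16-2-3p made up 36.7% with bait (34.1% to 39.4%) and 23.5% without (17.6% to 30.3%). miR-424-3p made up 3.81% with bait (2.85% to 4.99%) and 51.9% without (44.4% to 59.3%). miR-503-5p made up 3.89% and 9.29%, and miR-15b-3p 4.64% and 2.73%. The intervals of the first 3 members did not overlap between libraries, nor did those of miR-503-5p (2.92% to 5.07% and 5.51% to 14.5%), while those of miR-15b-3p did (3.57% to 5.91% and 0.893% to 6.26%). Shares of 1 total constrain each other, so a larger share of 1 member lowers those of others. The level of miR-503-5p itself was called neither higher nor lower (ratio 0.788, 0.448 to 1.45).

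**Figure D3:**
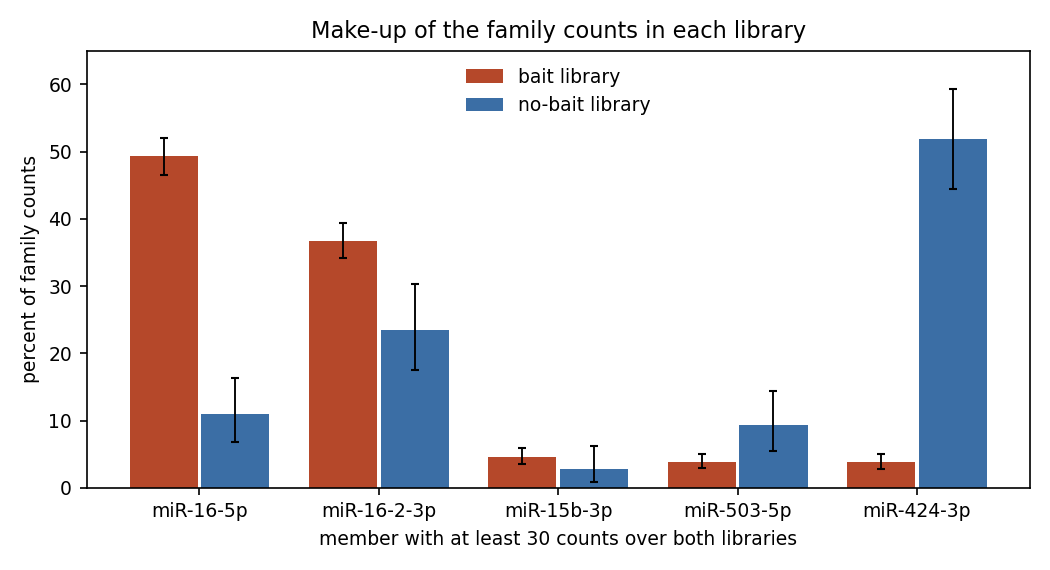
Percent of the family counts held by each of the 5 members with at least 30 counts (red, bait library, 1337 family counts; blue, no-bait library, 183 family counts; bars, exact binomial 95% intervals). miR-16-5p is the largest part with bait at 49.3%, and miR-424-3p the largest part without bait at 51.9%.

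The order of the members changed accordingly. With bait, miR-16-5p exceeded miR-16-2-3p by 1.34-fold (1.19 to 1.51), which exceeded miR-15b-3p by 7.92-fold (6.07 to 10.5). miR-15b-3p, miR-503-5p and miR-424-3p, at 62, 52 and 51 counts, came next and did not differ from one to the next beyond counting error. miR-424-3p exceeded miR-424-5p by 4.25-fold (2.24 to 8.76), and below it the neighbours did not differ beyond counting error. Without bait, miR-424-3p exceeded miR-16-2-3p by 2.21-fold (1.53 to 3.25), which exceeded miR-16-5p by 2.15-fold (1.24 to 3.86). miR-16-5p and miR-503-5p, at 20 and 17 counts, did not differ beyond counting error, and miR-503-5p exceeded miR-15b-3p by 3.40-fold (1.20 to 11.8). Levels of different miRNAs also carry ligation and amplification preferences of their sequences, so these orders are those of reads.

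Strands of the 3p arm made up much of the family. The 3p strand held 91.2% of the reads of the miR-15b hairpin with bait (62 of 68, 81.8% to 96.7%) and 71.4% without (5 of 7, 29.04% to 96.3%). It held 81.0% of miR-424 reads with bait (51 of 63, 69.1% to 89.8%) and 99.0% without (95 of 96, 94.3% to 99.97%). miR-503 had the reverse pattern, with 1 read of the 3p strand among 53 with bait and 0 of 17 without. As background, the 3p strand exceeded the 5p strand in 59 of 132 hairpins with at least 30 reads with bait (44.7%) and in 34 of 74 without (45.9%), so a dominant 3p strand was common in these libraries. Relative to miR-16-5p, miR-16-2-3p held 42.7% of the reads of both with bait (39.8% to 45.6%) and 68.3% without (55.3% to 79.4%).

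Ratios were also compared between arms. The ratio of miR-16-5p was 2.89 times that of miR-16-2-3p (1.64 to 5.24). Reads of miR-16-5p come from 2 hairpins, so this does not compare the arms of 1 hairpin. The ratio of miR-424-5p was 22.4 times that of miR-424-3p (3.09 to 965), from 1 count of miR-424-5p without bait. For miR-15b the 3p ratio was 4.13 times the 5p ratio, with an interval of 0.318 to 32.5 that includes 1. Pooled over the family, the 7 members of the 5p arm had a ratio of 4.72 (3.43 to 6.66) and the 3 members of the 3p arm one of 1.09 (0.905 to 1.31). The 5p ratio was 4.34 times the 3p ratio (2.98 to 6.43). That difference rested on single members, since it was 0.876 (0.509 to 1.57) without miR-16-5p and 1.59 (1.01 to 2.52) without miR-424-3p.

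**Figure D4:**
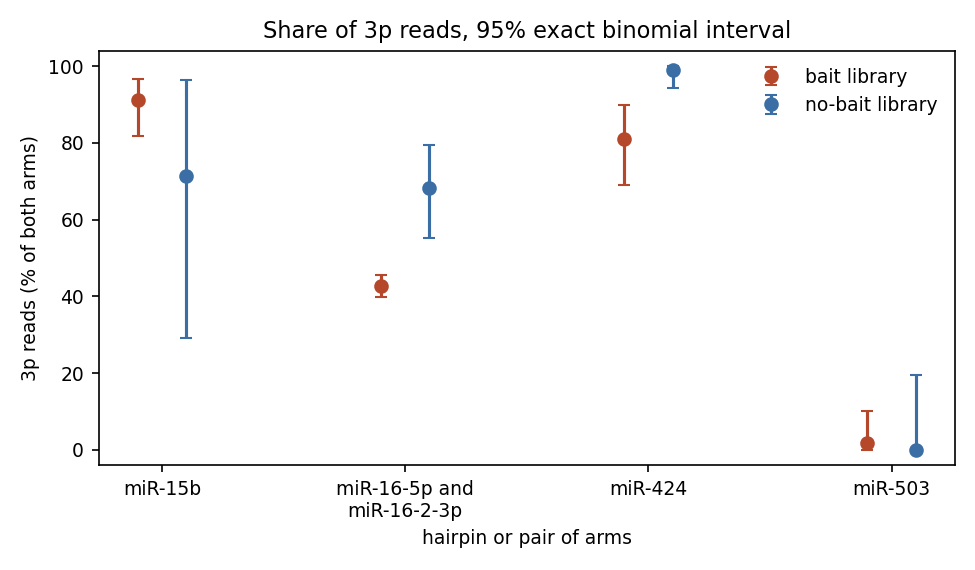
Reads of the 3p strand as a percent of the reads of both arms for miR-15b, miR-424 and miR-503, and for miR-16-2-3p beside miR-16-5p, whose 5p reads come from 2 hairpins (red, bait library; blue, no-bait library; bars, exact binomial 95% intervals). The 3p share of miR-424 is 81.0% with bait and 99.0% without, and that of miR-16-2-3p is 42.7% and 68.3%.

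Arms that belong to 1 cluster allow the clusters to be compared. On chromosome 3, miR-15b-5p, miR-15b-3p and miR-16-2-3p together had 559 counts in the bait library and 50 in the other, and their ratio was 2.88 (2.15 to 3.93). Most of these counts, 491 and 43, were of miR-16-2-3p. Without it the ratio was 2.50 (1.15 to 6.46). On the X chromosome, both arms of miR-424 and miR-503 together had 116 and 113, and their ratio of 0.264 (0.202 to 0.346) became 0.930 (0.545 to 1.67) without miR-424-3p. On chromosome 13, both arms of miR-15a and miR-16-1-3p had 6 counts with bait and 0 without. On chromosome 17, the arms of miR-195 and miR-497 held 3 and 4, with a ratio of 0.193 (0.0283 to 1.14). Of the 5 other arms of these hairpins, 0 reached 30 counts. miR-195-3p had 2 counts with bait and 4 without, and it shares its first 8 bases, and so its seed, with miR-16-2-3p.

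The cluster partners of miR-424 and miR-503 with at least 30 counts had ratios above 1, unlike miR-424-3p. Of 7 listed arms of miR-542 and miR-450, 3 reached 30 counts, each through the bait library alone. The filter favours this direction, so neither their number called higher nor their shared direction is read against the other miRNAs. The comparison of miR-450b-5p with miR-424-3p below carries the same limit, and the pool of all 7 rests mostly on these 3 arms. The ratio of miR-542-3p was 3.53 (1.65 to 9.02), from 96 counts in the bait library and 7 in the other. That of miR-450b-5p was 5.79 (2.19 to 21.7), from 90 and 4, and that of miR-450a-5p was 3.73 (1.38 to 14.2), from 58 and 4. The ratio of miR-450b-5p was 41.9 times that of miR-424-3p (14.3 to 163). Pooled, the 7 partners reached a ratio of 4.28 (2.54 to 7.75), from 249 and 15, which was 16.2 times that of the pooled miR-424 and miR-503 arms (8.86 to 31.0). Without miR-424-3p in that pool the difference was 4.60 times (2.05 to 10.3).

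Related seeds were compared next. miR-103a-3p and miR-107, whose seed is the family's shifted by 1 base, are encoded in introns of PANK genes and are 1 edit apart, so their reads may not be separable. The ratio of 2.25 (1.90 to 2.67) for miR-103a-3p was called higher, from 1335 counts in the bait library and 153 in the other. That of miR-107 was 1.18 (0.625 to 2.42), from 55 and 12. miR-646 and miR-6838-5p had 0 counts in both libraries. miR-103a-3p alone thus held nearly as many counts with bait as the 10 members together, 1335 against 1337.

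Base composition moved with these ratios. The members called higher had 45.5% (miR-16-5p) and 36.4% (miR-16-2-3p and miR-15b-3p) G and C bases, while miR-424-3p had 52.4% and miR-503-5p 56.5%. Among those called higher, the ratio was 8.49 at 45.5% and 2.94 and 3.19 at 36.4%. miR-450b-5p and miR-450a-5p had 27.3% and 31.8%. Over all tested miRNAs with a RefSeq sequence, 203 of 231, the rule called 26 of 38 higher (68.4%) and 2 lower where G and C made up under 40% of bases, and 9 of 34 higher (26.5%) and 13 lower where they made up 60% or more. Across those with counts in both libraries, all but 8 of the 203, Spearman's rho between G and C content and log2 ratio was -0.33 and Pearson's r was -0.34, over miRNAs that share both libraries and are not independent. From 50% to under 60% the median log2 ratio was -0.11, against -2.85 for miR-424-3p and -0.34 for miR-503-5p. From 40% to under 50% it was 0.81, against 3.09 for miR-16-5p. Under 40% it was 1.65, against 1.56 for miR-16-2-3p and 1.68 for miR-15b-3p. The part of base composition in the members' ratios was not tested.

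**Figure D5:**
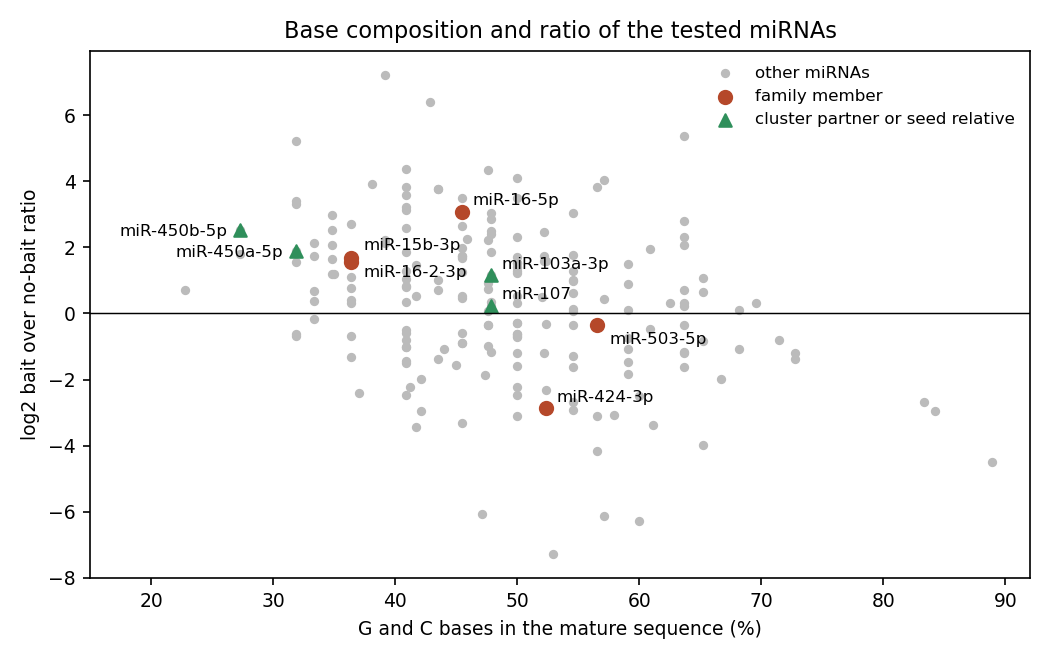
Log2 bait over no-bait ratio against the percent of G and C bases for the tested miRNAs with counts in both libraries and a RefSeq sequence (grey, other miRNAs; red, family members; green triangles, cluster partners and seed relatives, without miR-542-3p). Ratios tend to be lower at higher G and C content, and miR-424-3p at -2.85 lies below the -0.11 median of the miRNAs with 50% to under 60%.

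Outside the family and its lists, the tested miRNAs nearest to miR-16-5p in log2 ratio were miR-181a-5p (5425 and 168 counts, ratio 8.32, 7.13 to 9.76), let-7a-2-3p (32 and 1 counts, ratio 8.24, 1.38 to 336) and miR-582-3p (34 and 1 counts, ratio 8.76, 1.47 to 356), each within 0.05. The ratios of let-7a-2-3p and miR-582-3p each rest on 1 count without bait, so their closeness is not established. Those nearest to the pooled family were miR-152-3p (ratio 1.89, 1.46 to 2.49), miR-378a-5p (1.87, 0.656 to 7.31) and miR-24-3p (1.98, 1.86 to 2.11). Likeness here means a similar difference between 2 libraries, which many miRNAs reach.

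Seed matches to the bait were searched on both strands of the annotated 639 nt transcript of MACC1-AS1 in GENCODE 29, whose match to the isoform used as bait is not known. The letters searched were the reverse complement of bases 2 to 8. TGCTGCT, for the shared 5p seed, occurred 0 times on the transcript strand, and in 9.04% of 3739 antisense and lincRNA transcripts within 10% of that length. CGCTGCT, for miR-503-5p, occurred 0 times and in 2.78% of those transcripts. AATATTG, for miR-16-2-3p, occurred 0 times, with 1 match on the opposite strand, and in 4.79% of them. ATGATTC, for miR-15b-3p, and the letters ACGTTTT, for miR-424-3p, also occurred 0 times, and in 3.48% and 1.66% of them. The shorter match to bases 2 to 7 occurred 0 times for each member as well, and for the 5p seeds, which share it as GCTGCT within both longer motifs, it was present in 25.3% of those transcripts.

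The authors' deposited table gave miR-16-5p a log2 fold change of 3.08 with a p-value of 2.21e-05, and miR-424-3p one of -2.85 with a p-value of 0.000277. In the authors' deposited table miR-16-2-3p had 1.56 with a p-value of 0.0156, miR-15b-3p 1.68 with 0.0598 and miR-503-5p -0.34 with 0.848. The test behind that table is not named, and with 1 library in each group it compares the libraries and not the conditions. Its value of 8.16 for miR-15a-5p arose from 3 counts against 0, with 0 replaced by 0.01 RPM, and is not a measured fold.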

How the data were processed

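miRNAs retained by resin with and without MACC1-AS1-MS2 were sequenced from MDA231 lysate, 1 library each. Per the deposited files the authors gave a count per mature miRNA name and an RPM, which equalled the count per 1000000 of the library total within 0.00994 RPM. A further deposited table holds the authors' log2 fold change and p-value, from a test that is not named. BWA is listed in the submitters' processing notes. The miRNA reference, genome build and counting of shared reads are not stated there or in the labels.

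Counts were scaled by library totals, 1047269 and 269716. Ratios have exact conditional binomial intervals, levels exact Poisson intervals and shares exact Clopper-Pearson intervals, all at 95%, computed with scipy 1.17.1. The ratio intervals were tested on simulated Poisson counts with fixed totals. Those counts follow the model that the intervals assume. The simulation therefore checks the computation, and not amplification or variation between libraries. Differences between ratios are given as 1 observed ratio divided by the other, with the exact interval of the conditional odds ratio. Alternatives used edgeR 4.0.16 TMM factors, DESeq2 1.42.0 size factors, totals without the 5 most abundant miRNAs, the deposited RPM, other count minimums, a bound beyond 2-fold and other sets of members.

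The members and lists were chosen with earlier results of these data known. Named were all members, the listed relatives by counts, with ratios for those with at least 30 counts, and the 3 miRNAs nearest in log2 ratio to miR-16-5p and to the pool. Relatives below that minimum and markers named singly were chosen after their values were seen. Sequences and hairpin positions are RefSeq's on GRCh38.p14, and host genes GENCODE 29 on GRCh38.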

Additional observations from a re-analysis of the deposited data

How the results depend on the processing

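The calls of miR-16-5p, miR-16-2-3p and miR-424-3p were kept under all 8 alternatives run. The other count minimums could not change these calls, since each of these members had over 100 summed counts. Nor could the deposited RPM, which repeats the scaling by totals. Only the other scalings and the bound beyond 2-fold could have changed them. miR-15b-3p was not tested at a minimum of 100 counts and lost its call with an interval bound beyond 2-fold, which left 2 members higher in each case. The pooled ratio of 1.88 was 2.52 with DESeq2 size factors, past 2, as it was with TMM at 2.09. It was 1.07 without miR-16-5p, 4.72 with 5p strands only, 2.94 as the median of member ratios and 3.76 without miR-424-3p. The 5p over 3p difference of 4.34 turned to 0.876 without miR-16-5p. Scaling moved every log2 ratio by 0.15 (TMM), 0.42 (DESeq2) or -0.13 (without the 5 most abundant), which put miR-503-5p at 1.06 and miR-15b-5p at 1.04 with DESeq2, both within their intervals. Over all miRNAs, 59 were higher and 37 lower at a minimum of 100 counts, and 103 lower with no count filter, with fewer and more miRNAs tested. Of the relatives, 3 of 3 tested cluster partners and 1 of 2 tested seed relatives were called higher. Over all tested miRNAs 39.4% were called higher and 26.8% lower. The partners passed the filter through the bait library alone, so this number is not read as a result about the relatives. These 4 higher calls became 2 at a minimum of 100 counts and 1 with a bound beyond 2-fold. Lower calls of relatives were 0, or 1 with no count filter (miR-195-3p). DESeq2 gave 114 higher and 44 lower calls over all miRNAs, against 91 and 62. The alternatives without miR-424-3p or miR-16-2-3p, those for relatives, clusters, cluster partners, arms and shares, and the shorter seed were chosen after the data were seen. No paired analysis was possible because each group has 1 library. The 20 counts of miR-16-5p without bait, and 0 to 5 counts of 6 other members there, limit the precision.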
